A study of Mus musculus with 6 samples.

Results

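The comparison described here set fasted livers without hepatocyte Gapdh against floxed controls, all from mice on plain water. It used the 2 knockout libraries and the 2 control libraries that the sample titles mark as water, 4 of the 6 libraries of the series. RNA came from the livers of 12-week-old male mice after 16 hours without food. Control mice carried the floxed allele (genotype label Gapfl) and knockout mice its deletion in hepatocytes (genotype label GapAlb KO), and the recombinase driver is not spelled out in the sources used here. RNA of 2 mice was pooled for each library, so p-values measure the spread between pools and not between animals. The remaining 2 libraries, from knockout mice that drank water with 5% serine, entered the estimate of spread and are given beside some values. Whole liver was sequenced, so fewer cells of a type and less RNA per cell cannot be told apart.

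GAPDH, the product of Gapdh, oxidises glyceraldehyde 3-phosphate in glycolysis and passes the electrons to NAD. The same step runs backwards when the fasted liver makes glucose from lactate, glycerol and amino acids. A fasted liver normally lives on fatty acids, exports glucose and ketone bodies, and keeps supplying the blood with plasma proteins. Pyruvate dehydrogenase, the tricarboxylic acid cycle and the shuttles that carry NADH equivalents into mitochondria are the routes on which carbon and electrons from these fuels meet.

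Levels are FPKM (fragments per kilobase of gene, scaled to the mapped fragments of a library) as the authors deposited them. A change is the difference of mean log2(FPKM + 0.5), knockout minus control, which understates the change of low genes. A value in brackets after levels, with no other name, is such a log2 change. A gene is called where limma gave a Benjamini-Hochberg adjusted p under 0.05 over all 11134 genes tested. The FPKM of a library summed to between 787332 and 869451, and depths of 17.3 M to 19.2 M fragments followed from the smallest increments of FPKM. The control pools correlated at 0.970 and the knockout pools at 0.967 over log2 values of tested genes. The median gene differed by 0.21 on the log2 scale between the pools of either group. The first principal component of the 4 libraries held 55.4% of the variance, with the controls at -30.5 and -28.9 and the knockouts at 38.8 and 20.5. The knockout pools thus lay further apart on that axis than the control pools.

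Gapdh itself (ENSMUSG00000057666, chr6:125138678-125143430, minus strand, GRCm39) had 1091 and 1391 FPKM in the control pools and 23.8 and 17 FPKM in the knockout pools. The knockout mean was 1.64% of the control mean, a log2 change of -5.90 (SE 0.21, adjusted p = 0.000352). The pools of the groups lay far apart. Reads from Gapdh can also be assigned to its copies, since the deposited gene descriptions name the GAPDH protein for 256 other loci, of which 60 had a value above 0 in the 4 libraries and 6 reached 1 FPKM. The processed pseudogene Gm7336 stood at 240.4 and 13.9 FPKM in the controls, and was listed at 0 and at 2.47 FPKM in the knockouts. It was not called (adjusted p = 0.101), and its control pools differed widely from each other. The other copies summed to 29.9 and 25.8 FPKM in the controls and to 19.2 and 18.3 FPKM in the knockouts, close to the level left for Gapdh itself. The window of 100 kb to either side holds 22 genes with Gapdh, of which 9 were tested and Gapdh was the only one called. Iffo1, an intermediate filament family gene, stood at 3.87 and 5.44 FPKM in the controls and at 13.7 and 11.7 FPKM in the knockouts (log2 change 1.37, adjusted p = 0.0700).

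In all, 90 genes were called higher and 45 lower, Gapdh included, which is 0.808% and 0.404% of the genes tested. Of the 135, 107 are protein coding and 18 are long non-coding RNA genes. The ratio of mean FPKM was at least 2 for 74 of the higher genes and at most 0.5 for 42 of the lower genes. The higher calls had a median log2 change of 1.45 and the lower calls one of -1.54, while the median of all genes tested was 0.08. Both knockout pools lay above both control pools for 3835 genes (34.4%) and below them for 2332 (20.9%), and all 135 called genes were among these. A positive change was found for 58.9% of all genes tested. Counts given below for the gene lists are to be read against these shares. Before adjustment, 1559 genes were higher and 849 lower at p under 0.05. Higher genes made up 66.7% of calls, and 55.5% with median-of-ratios scaling (61 higher, 49 lower). For 128 of the 135 called genes both serine pools also lay beyond both controls on the knockout side. The same control pools enter there, so this is no separate check, and the share over all genes tested was not computed. Serine values given below belong to single genes and do not stand for the calls as a whole.

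The calls rested on all 4 libraries. Without control pool 1 there were 4 higher and 3 lower genes, without control pool 2 there were 3 and 6, without knockout pool 1 there were 11 and 3, and without knockout pool 2 there were 8 and 3. In all 4 of these fits the calls of Gapdh and Gm43778 held, and in 3 of them that of Cpt1b, while for 127 of the 135 genes no call held in any. Without serine pool 1 there were 117 higher and 97 lower genes, and without serine pool 2 there were 116 and 99. Of the 64 gene lists described below, the median log2 change of 51 changed sign or moved by over 1.5 times with 1 of the 4 compared libraries left out. Below, such limits are given for some of these lists only. With median-of-ratios scaling 32 calls ended, at adjusted p between 0.0507 and 0.0637. Among genes described below these were Eno1, Pgam1, Cs, Slc27a4, Cidec, Fitm2, Pnpla2, Ppp1r3c, Derl3, Etnppl, AA986860, Igfbp1, H3c15, Adora1, Abhd6, Ctps, Ucp2, Aifm2, Rab9, Rab30, Picalm, Rdh16 and Pspc1.

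**Figure D1:**
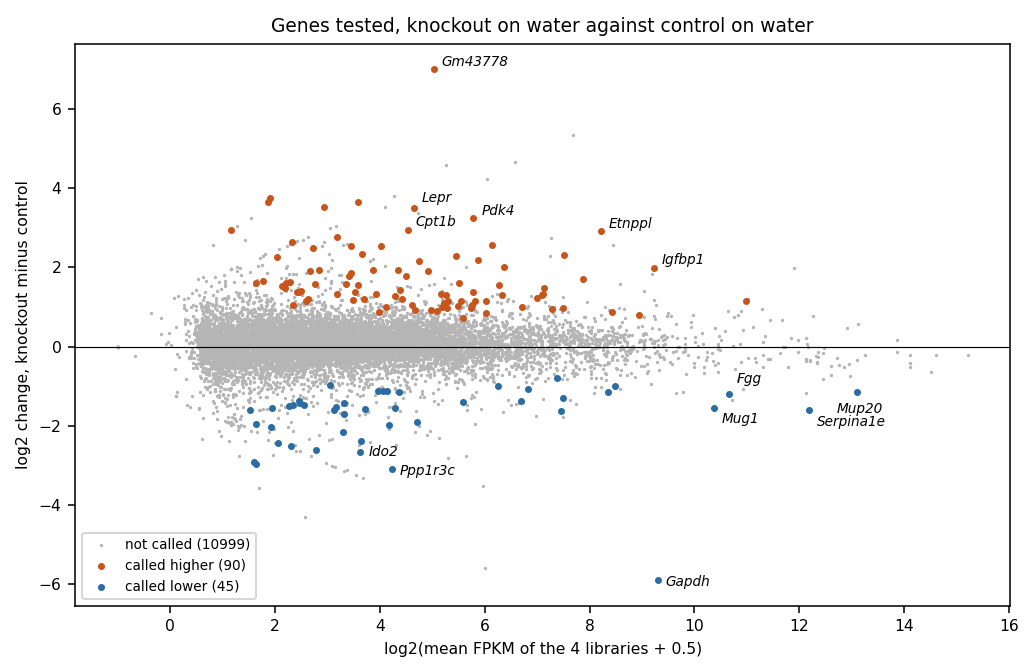
Log2 change of each of the 11134 genes tested (vertical axis) against log2 of its mean FPKM + 0.5 over the 4 libraries (horizontal axis), with the 90 genes called higher in orange and the 45 called lower in blue. Calls spread over the whole range of levels, Gapdh stands alone at the bottom, and Gm43778 stands at the top.

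**Figure D2:**
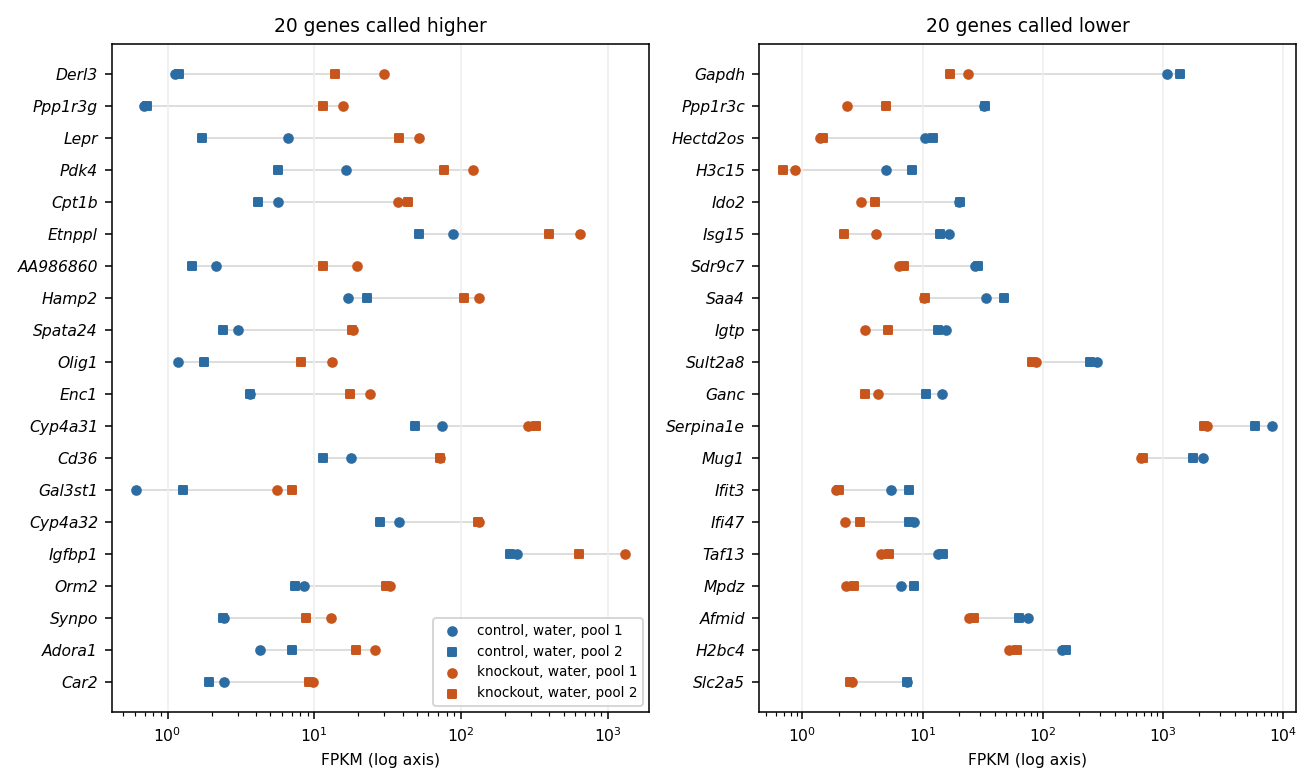
FPKM (log axis) in the 2 control pools (blue) and the 2 knockout pools (orange) for the 20 called genes with the largest rise and the 20 with the largest fall, chosen among called genes with a mean of at least 5 FPKM in a group. In every row the pools of a group lie on their own side, with Gapdh showing the widest gap of the falls.

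Among the glycolytic genes around the missing step only Eno1 and Pgam1 were called, both higher. Above the Gapdh step 16 genes were tested and none was called, with 7 of them above both controls in both knockout pools and 3 below (median log2 change 0.39, but 0.25 without knockout pool 2). Gpi1, the isomerase of hexose phosphates, had a change of 0.72 that missed the threshold (adjusted p = 0.0639). Gckr, the inhibitory partner of glucokinase, was the lowest of the list at -0.75 (adjusted p = 0.101).

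Below the Gapdh step 2 of 11 genes rose, with 5 above both controls and 4 below (median 0.22, but 0.48 without control pool 1). Eno1, the enolase, rose from 351 and 359.6 to 616 and 629 FPKM (0.81, adjusted p = 0.0445). Pgam1, the phosphoglycerate mutase, rose from 106 and 107 to 216 and 195 FPKM (0.94, adjusted p = 0.0474). Both genes have processed copies elsewhere in the genome, so their levels are uncertain. Pgk1, the kinase directly after GAPDH, had a change of 0.73 (adjusted p = 0.0601). The lactate dehydrogenases stood apart from each other. Ldha stood at 1172 and 1232 FPKM in the controls and at 443 and 665 FPKM in the knockouts (-1.15, adjusted p = 0.0758), and Ldhb at 1.97 and 1.1 and at 17.9 and 6.73 FPKM (2.54, adjusted p = 0.128). Neither was called, and the knockout pools of Ldhb differed from each other by more than the controls did.

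Glycogen genes held the widest opposite pair. Ppp1r3g, a subunit that brings protein phosphatase 1 to glycogen, rose from 0.69 and 0.72 FPKM to 15.6 and 11.4 FPKM (3.52, SE 0.33, adjusted p = 0.0210). Ppp1r3c, a subunit of the same family, fell from 32.7 and 33.2 to 2.34 and 4.94 FPKM (-3.09, SE 0.49, adjusted p = 0.0482). These were the 2 calls among 21 glycogen genes, whose median change was 0.32, but 0.12 without control pool 2. On serine, Ppp1r3c stood at 18.7 and 6.76 FPKM and Ppp1r3g at 12.4 and 6.25 FPKM. The branching enzyme Gbe1 (0.84, adjusted p = 0.0785) was not called. Outside the lists, 3 further genes of carbohydrate handling fell, chosen after their values were seen. The fructose transporter gene Slc2a5 fell from 7.38 and 7.44 to 2.58 and 2.48 FPKM (adjusted p = 0.0425). Ganc, a neutral alpha-glucosidase, fell from 14.6 and 10.8 to 4.28 and 3.32 FPKM, and Amy1, an amylase with close relatives, from 158 and 147 to 72.9 and 72.6 FPKM.

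Beyond pyruvate, the kinase Pdk4 and the citrate synthase of the tricarboxylic acid cycle rose. Pdk4, which phosphorylates and switches off pyruvate dehydrogenase, rose from 16.5 and 5.63 to 119.8 and 76.7 FPKM (3.24, SE 0.46, adjusted p = 0.0378). The pools of both groups differed from each other, and the groups did not overlap. It was the only call among 12 genes of the complex and its regulators (median 0.16), and the subunit gene Dlat had a change of 0.80 (adjusted p = 0.0567).

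In the cycle, citrate synthase Cs rose from 29.2 and 28.7 to 62.7 and 56.7 FPKM (1.03, adjusted p = 0.0378). Of 20 cycle genes 2 were called, Cs among them, and none was called lower, 17 lay above both controls in both knockout pools and 0 below, and the median change was 0.49. The isocitrate dehydrogenase Idh2 (1.10, adjusted p = 0.0552) and malate dehydrogenase Mdh2 (0.63, adjusted p = 0.0580) were closest to the threshold. Ogdh, a subunit of oxoglutarate dehydrogenase, had a change of 1.01 (adjusted p = 0.0596) and fumarase Fh1 one of 1.13 (adjusted p = 0.0654).

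Of 13 genes of the NADH shuttles, Slc25a11, the carrier that exchanges malate for oxoglutarate, rose from 44.96 and 47.2 to 118 and 109 FPKM (1.29, SE 0.14, adjusted p = 0.0306). The list had a median change of 0.49 (0.26 without knockout pool 1), with 8 genes above both controls and 1 below. The one below was Slc25a13, the aspartate and glutamate carrier, at -0.46 (adjusted p = 0.125). Cytosolic malate dehydrogenase Mdh1 had a change of 0.71 (adjusted p = 0.0893).

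**Figure D3:**
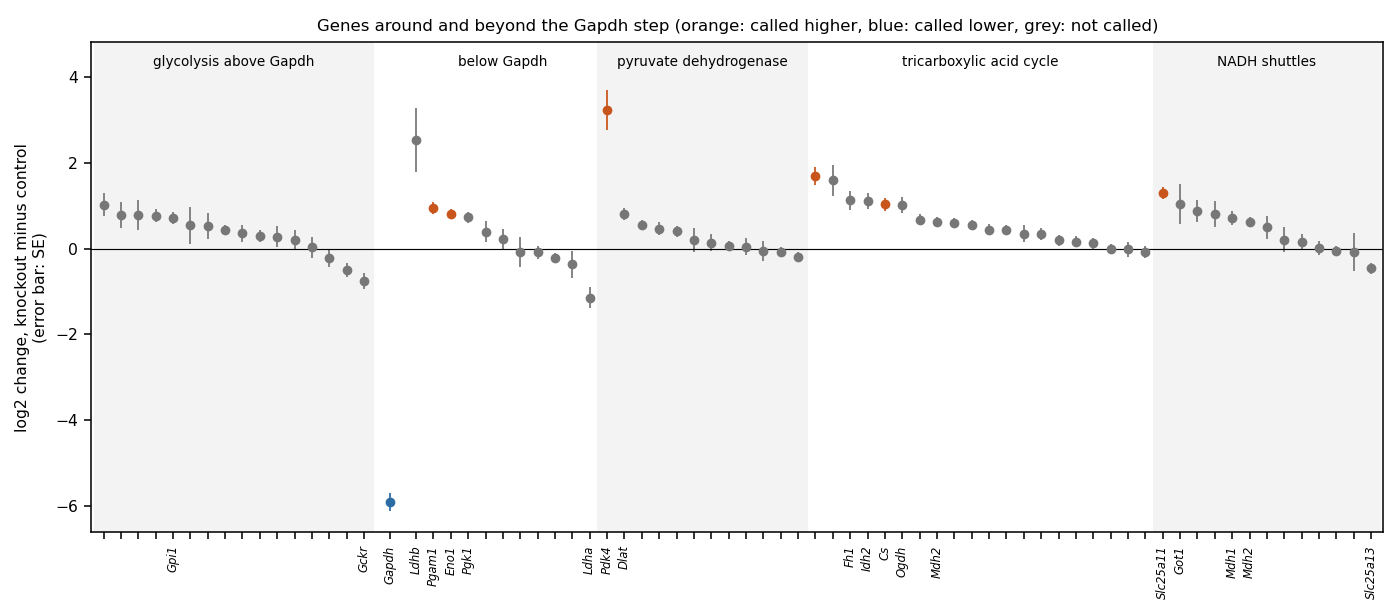
Log2 change with its SE (vertical axis, knockout minus control) for all tested genes of 5 lists that follow carbon and NADH from glucose to the mitochondrion, ordered by change within each list, with names only for genes described in the text and Gapdh set between the glycolysis lists. Orange marks calls in the higher direction and blue the fall of Gapdh, and most cycle genes sit above 0, with 2 of 20 called.

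Among enzymes that degrade tryptophan or make NAD, 2 fell and none rose. Ido2, a tryptophan dioxygenase, fell from 20.03 and 20.6 to 3.06 and 3.99 FPKM (-2.38, SE 0.17, adjusted p = 0.0110). Afmid, the formamidase that follows it in the kynurenine route, fell from 75.2 and 63.1 to 24.2 and 27.1 FPKM (-1.41, adjusted p = 0.0368). Tdo2, the main hepatic tryptophan dioxygenase, stood at 1373 and 1264 FPKM in the controls and at 2628 and 1998 FPKM in the knockouts (0.80, adjusted p = 0.101) and was not called. Of 26 genes 0 were called higher and 2 lower, with 10 above both controls and 9 below (median 0.12).

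Respiratory chain subunits encoded in the nucleus mostly had small positive changes. Cycs, cytochrome c, rose from 35.02 and 34.3 to 70.6 and 84.8 FPKM (1.15, adjusted p = 0.0306). It was the only call among 40 genes of complexes II to V, of which 37 had a positive change and 31 lay above both controls (median 0.36). Over all genes tested, 58.9% had a positive change and 34.4% lay above both controls. Of 37 complex I genes none was called, with 22 above and 2 below (median 0.21). Ndufa8 was the closest at 0.74 (adjusted p = 0.0552). The mitochondrially encoded mRNAs had a median of -0.34 with none of 13 called, and the median was -0.10 without knockout pool 1 and -0.59 without knockout pool 2. All mitochondrial genes together took 12.3% and 12.2% of FPKM in the controls and 9.70% and 12.6% in the knockouts, and the part of this share in the result was not tested. Among 78 mitochondrial ribosomal protein genes Mrps36, which other work places in the oxoglutarate dehydrogenase complex, rose from 12.1 and 13.02 to 31.9 and 27.2 FPKM (1.20, adjusted p = 0.0306), the only call of that list (median 0.15). Of 76 cytosolic ribosomal protein genes 70 had a positive change and none was called (median 0.19).

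Some fatty acid genes rose at uptake, at the carnitine gate and in peroxisomes, while most members of these lists were not called. Cd36, a fatty acid translocase, rose from 17.8 and 11.5 FPKM to 71.7 and 71.7 FPKM (2.29, SE 0.30, adjusted p = 0.0368), and the knockout pools were almost equal. The transporter genes Slc27a1 (18.7 and 25.7 to 64.5 and 71.1 FPKM, adjusted p = 0.0306) and Slc27a4 (10.1 and 12.1 to 22.9 and 22.4 FPKM, adjusted p = 0.0378) rose too. These were 3 of 20 genes of uptake, binding and activation, with none called lower, 8 above both controls and 7 below. The median was 0.29, but 0.05 without knockout pool 2. The list summed to 8823 and 9338 FPKM in the controls and to 4763 and 7650 FPKM in the knockouts.

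Cpt1b, the muscle form of carnitine palmitoyltransferase 1, rose from 5.64 and 4.11 to 37.3 and 43.6 FPKM (2.94, SE 0.18, adjusted p = 0.00652). Its liver counterpart Cpt1a stood at 272 and 232 FPKM in the controls and at 237 and 218 FPKM in the knockouts, with overlapping pools, and so stayed the more abundant form. The carnitine transporter gene Slc22a5 rose from 37.9 and 32.6 to 69.7 and 70.4 FPKM and Eci2, an enoyl-CoA isomerase, from 242 and 249 to 419.8 and 474 FPKM (adjusted p = 0.0368 and 0.0370). These 3 were the calls among 25 genes of the carnitine shuttle and mitochondrial oxidation, with 13 positive and 12 negative changes. The list's median was 0.05, but -0.02 with median-of-ratios scaling.

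In peroxisomes Pex11a, which acts in peroxisome division, rose from 79.98 and 76.8 to 183 and 212 FPKM (1.32, adjusted p = 0.0306). Of 22 peroxisomal genes 2 were called higher, Pex11a among them, and none lower (median 0.10, but 0.03 with median-of-ratios scaling). The fatty acid hydroxylase genes Cyp4a31 (74.2 and 48.5 to 284 and 322 FPKM) and Cyp4a32 (37.6 and 27.8 to 133 and 131 FPKM) rose, the 2 calls among 6 genes of the family (median 0.16), while no abundant relative was called. Cyp4a10 stood at 2482 and 2474 FPKM in the controls and at 1687 and 2462 FPKM in the knockouts, and Cyp4a14 at 3533 and 3176 and at 3232 and 4655 FPKM. These genes resemble one another and may share reads.

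Some genes of the lipid droplet rose as well. Cidec, a protein of droplet contacts, rose from 68.8 and 87.5 to 198 and 187 FPKM (1.30, adjusted p = 0.0370). Fitm2, which helps form droplets, rose from 22.2 and 24.2 to 55.8 and 46.01 FPKM (1.11, adjusted p = 0.0370), and Pnpla2, the triglyceride lipase ATGL, from 74.8 and 77.3 to 207 and 153 FPKM (1.22, adjusted p = 0.0390). So both storage and breakdown genes were among the 3 calls of 15, with 11 genes above both controls, 0 below and a median of 0.56. The coat protein genes Plin4 (1.62, adjusted p = 0.0567) and Plin2 (0.80, adjusted p = 0.0750) were not called.

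Ketone body genes gave no call among 9. Bdh1, which interconverts the ketone bodies, stood at 136 and 141 FPKM in the controls and at 38.6 and 66.9 FPKM in the knockouts (-1.44, adjusted p = 0.115). Fatty acid synthesis and elongation gave no call among 19 (median -0.02, but 0.06 with TPM scaling), with the elongase Elovl2 at -1.79 (adjusted p = 0.0683) and the carbohydrate response factor Mlxipl at -1.29 (adjusted p = 0.118). Cholesterol synthesis gave none among 25 (median 0.32, but 0.19 to 0.21 without knockout pool 1 or either control pool) and the thioesterases none among 11 (median 0.38, but 0.23 without control pool 2).

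A few genes of hormone receptors, secreted signals and fasting regulation rose, while most hepatokine genes had a negative change. Lepr, the leptin receptor, rose from 6.63 and 1.73 FPKM to 51.95 and 38.1 FPKM (3.50, SE 0.50, adjusted p = 0.0378). Igfbp1, a binding protein for insulin-like growth factors that insulin represses, rose from 242 and 215 to 1308 and 635 FPKM (1.99, adjusted p = 0.0482), and knockout pool 1 lay well above pool 2. Ppargc1a, the coactivator of fasting genes, rose from 3.43 and 2.47 to 9.81 and 9.54 FPKM (1.57, adjusted p = 0.0393). With Igfbp1 it made the 2 calls among 26 genes of gluconeogenesis and its regulators (median 0.06, but -0.01 with median-of-ratios scaling). Pck1, the enzyme that commits carbon to glucose, stood at 1919.9 and 1509.7 and at 3554 and 3048 FPKM (0.95, adjusted p = 0.0602).

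Of 26 hepatokine genes, 8 had a positive change and 18 a negative one, with 6 above both controls and 12 below (median -0.14). Among them Hamp2, a hepcidin, rose from 16.97 and 22.9 to 133 and 105 FPKM (2.55, adjusted p = 0.0210), and it has a near-identical relative that can share its reads. Angptl8, a feeding-induced inhibitor of lipoprotein lipase activity, fell from 21.5 and 20.3 to 10 and 8.65 FPKM (-1.13, adjusted p = 0.0482), while the serine pools stood at 38.01 and 28.6 FPKM, above the controls. Igfals, the carrier subunit of circulating insulin-like growth factors, had a change of -1.53 (adjusted p = 0.0582). The stress hormones Fgf21 (0.19, adjusted p = 0.798) and Gdf15 (0.26, adjusted p = 0.712) had overlapping pools. Of 22 genes of leptin, interleukin 6 and STAT signalling, Lepr and Il1rn, the interleukin 1 receptor antagonist (4.75 and 4.67 to 10.9 and 14.2 FPKM, adjusted p = 0.0370), were called (median -0.06, but 0.02 with TPM scaling). Glucocorticoid-induced genes held 1 call among 18, Pdk4 (median 0.11), and Tsc22d3, their classical member, stood at 62.8 and 58.2 FPKM in the controls and at 32.1 and 34.3 FPKM in the knockouts (-0.86, adjusted p = 0.0750). Clock genes had none called among 17, with 7 above and 3 below (median 0.50, but 0.12 without control pool 2 and 0.30 without control pool 1), and clock outputs none among 14, with 10 above and 3 below (median 0.61).

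Interferon-stimulated genes mostly had negative changes, and 6 of them fell. Interferons switch these genes on, many of them through STAT2 and IRF9, which act in a complex that recognises repeated GAAA letters. Of 39 interferon-stimulated genes tested, 0 were called higher and 3 lower, 34 had a negative change, and 1 lay above and 26 below both controls (median -0.40). Of 7 interferon-inducible GTPase genes, which help cells attack intracellular microbes, 3 were called lower, all 7 had a negative change and 6 lay below both controls (median -1.47). The background is 0.404% of genes called lower, 20.9% below both controls and 58.9% with a positive change.

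Isg15, a ubiquitin-like modifier, fell from 16.7 and 14.1 FPKM to 4.11 and 2.21 FPKM (-2.17, SE 0.27, adjusted p = 0.0317). Ifit1 and Ifit3, which bind foreign RNA or its sensors, fell from 4.6 and 4.27 to 0.65 and 0.91 FPKM and from 5.51 and 7.74 to 1.91 and 2.03 FPKM (-1.95 and -1.51, adjusted p = 0.0370 and 0.0422). No knockout pool reached a control pool for any of these. The GTPase gene Igtp fell from 15.7 and 13.6 to 3.33 and 5.19 FPKM (-1.69, adjusted p = 0.0370), Irgm1 from 21.9 and 22.7 to 9.0 and 11.2 FPKM and Ifi47 from 8.5 and 7.72 to 2.27 and 3.0 FPKM. The serine pools stood at 5.62 and 6.01 FPKM for Isg15 and at 6.61 and 5.37 FPKM for Igtp, also below both controls.

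Irf9 and Stat2, the genes of these factors, had no call of their own. Irf9 stood at 17.3 and 17.2 FPKM in the controls and at 5.86 and 8.54 FPKM in the knockouts (-1.23, adjusted p = 0.0503), and Stat2 at 20.5 and 21.1 and at 9.41 and 10.2 FPKM (-1.05, adjusted p = 0.0550). Outside the lists Ube2l6, the conjugating enzyme that works with Isg15, fell from 27.03 and 28.7 to 11.1 and 13.6 FPKM (-1.15, adjusted p = 0.0370), chosen after its values were seen. Genes of MHC class I presentation, many of which interferon also induces, gave no call among 21 and a median of 0.20, but 0.07 without knockout pool 2. Among them H2-Q7 had a change of 1.40 (adjusted p = 0.0625) and Tap1 one of -0.47 (adjusted p = 0.171). H2-Q7 has near-identical relatives. Markers of Kupffer cells summed to 177 and 149.8 FPKM in the controls and to 173 and 144 FPKM in the knockouts, with 0 of 12 called and none at 0. Markers of lymphocytes and neutrophils summed to 7.0 and 8.75 FPKM in the controls and to 7.16 and 7.98 FPKM in the knockouts, with Ly6g at 0 in all of them. The part of these cells in the interferon result was not tested.

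The letters GAAA, any 2 bases and GAAA again, on either strand, occur between 250 bases before and 50 after a RefSeq start (GRCm38.p6) in 15 of the 31 interferon genes that have a window, 48.4%, and in 3.64% of the tested genes with one. The 15 genes with these letters had a median log2 change of -1.05 (from -2.17 to 0.23) and the 16 without them one of -0.26 (from -1.98 to 0.14). The ranges overlapped, and the part of these letters in the changes was not tested. Of called genes with a window, 7 of 34 lower and 1 of 60 higher genes held them, and the 7 include the 5 interferon genes printed below. A match is a description of the letters and not a bound site. The 150 bases before the start of the 5 called genes of these lists whose match lies in that stretch are printed below, 5′ to 3′ on the gene's strand, with the letters of a match on either strand in capitals. Isg15 (chr4:156200819-156200968, minus strand) has 3 overlapping matches within 78 bases of its start. Ifit1 is at chr19:34640739-34640888 (plus strand), Ifit3 at chr19:34583379-34583528 (plus strand), Igtp at chr11:58199406-58199555 (plus strand) and Irgm1 at chr11:48871421-48871570 (minus strand).
Isg15: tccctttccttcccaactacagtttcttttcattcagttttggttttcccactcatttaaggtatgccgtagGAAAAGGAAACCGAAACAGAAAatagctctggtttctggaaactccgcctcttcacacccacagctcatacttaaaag
Ifit1: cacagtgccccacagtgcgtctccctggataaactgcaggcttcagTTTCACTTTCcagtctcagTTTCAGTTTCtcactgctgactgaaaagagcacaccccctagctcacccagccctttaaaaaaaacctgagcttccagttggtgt
Ifit3: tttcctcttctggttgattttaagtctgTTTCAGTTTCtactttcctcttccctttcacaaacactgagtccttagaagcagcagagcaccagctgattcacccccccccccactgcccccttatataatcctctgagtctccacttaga
Igtp: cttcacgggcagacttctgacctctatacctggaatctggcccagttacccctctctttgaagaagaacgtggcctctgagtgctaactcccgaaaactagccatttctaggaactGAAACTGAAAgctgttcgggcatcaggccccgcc
Irgm1: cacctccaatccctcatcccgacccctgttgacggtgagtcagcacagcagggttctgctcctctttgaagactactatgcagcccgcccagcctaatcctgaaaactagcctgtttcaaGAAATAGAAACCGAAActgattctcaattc
In Ifit1 and Ifit3 the capitals read TTTC, the same letters on the other strand, while in Isg15, Igtp and Irgm1 they read GAAA. Ifi47, the remaining called gene of the 2 lists, holds no match in its window.

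**Figure D4:**
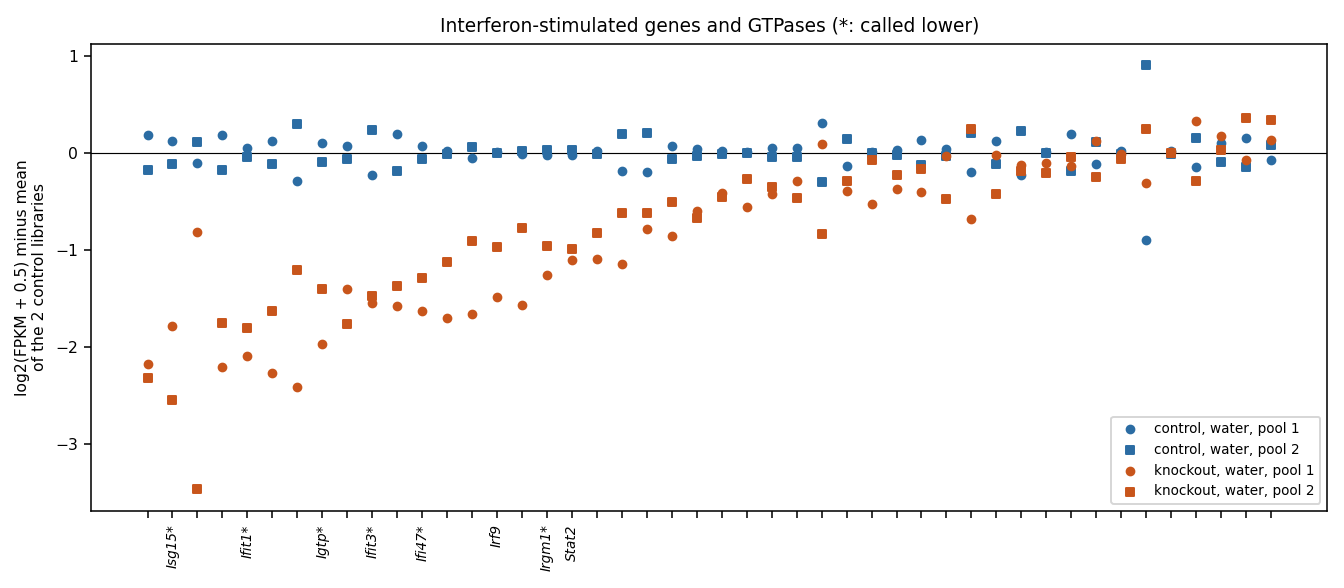
Log2(FPKM + 0.5) minus the mean of the 2 control pools (vertical axis) for the 46 tested interferon genes, ordered by change and named where described in the text, with control pools in blue and knockout pools in orange, and stars on the 6 genes called lower. For 37 of the 46 genes both knockout pools lie below the control mean, and for 1 gene both lie above both control pools.

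Genes of plasma proteins made by hepatocytes mostly had negative changes, and a few of them fell. Fgg, the gamma chain of fibrinogen, fell from 2285 and 2229.8 to 929 and 1033 FPKM (-1.20, adjusted p = 0.0422), and its partner Fga had a change of -1.35 (adjusted p = 0.0552). Serpinf2, alpha-2-antiplasmin, fell from 446 and 454 to 185 and 223 FPKM (-1.14, adjusted p = 0.0415). It was the only call in the list of 25 coagulation genes, where Fgg was not counted. Of that list 3 genes lay above and 17 below both controls (median -0.39). Complement gave no call among 27, with 0 above and 16 below (median -0.23). Apolipoproteins and carriers gave none among 25, with 2 above and 15 below (median -0.30). Transferrin Trf stood at 7816 and 6481 FPKM in the controls and at 3723 and 4388 FPKM in the knockouts (-0.82, adjusted p = 0.0892). Albumin Alb stood at 43649.9 and 37941 and at 31906 and 38569.8 FPKM, with overlapping pools.

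The acute phase list went both ways. Saa4, a constitutive serum amyloid, fell from 33.8 and 48.1 to 10.2 and 10.6 FPKM (-1.91, adjusted p = 0.0288). Orm2, an orosomucoid with close relatives, rose from 8.53 and 7.39 to 33.04 and 30.7 FPKM (1.94, adjusted p = 0.0306), and the serine pools stood at 9.94 and 16.1 FPKM. Among 25 genes 1 rose and 2 fell (median -0.01, but 0.07 with TPM scaling). Cd14, the endotoxin coreceptor, stood at 1.89 and 1.64 FPKM in the controls and at 50.2 and 12.7 FPKM in the knockouts (3.51, adjusted p = 0.0610), with pools of the knockout far apart.

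Serpina1e, an alpha-1-antitrypsin gene, fell from 8123 and 5915 to 2326 and 2219.6 FPKM (-1.61, adjusted p = 0.0370), the only call among 14 clade A serpins (median -0.25). Mup20, the urinary pheromone darcin, fell from 11312 and 12746 to 5169.5 and 5694 FPKM (-1.15, adjusted p = 0.0378), the only call among 20 major urinary protein genes (median -0.32). The median of that list was 0.15 without knockout pool 2, -0.79 without knockout pool 1, -0.52 without control pool 1 and -0.03 without control pool 2. Both families consist of near-identical genes. Outside the lists Mug1, the protease inhibitor murinoglobulin, fell from 2167 and 1778 to 658 and 689 FPKM (-1.54, SE 0.17, adjusted p = 0.0306).

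Stress and amino acid lists held few calls. Derl3, a factor that moves misfolded proteins out of the endoplasmic reticulum, rose from 1.12 and 1.19 to 29.9 and 13.9 FPKM (3.66, SE 0.55, adjusted p = 0.0416). Its serine pools stood at 1.21 and 4.45 FPKM, the first close to the controls and the second clearly above them. Derl3 was the only call among 26 genes of its list (median 0.42, but 0.21 without knockout pool 1), and the chaperone Hsp90b1 had a change of 0.98 (adjusted p = 0.132). Atf5, a transcription factor of the integrated stress response, fell from 508 and 442 to 222 and 256 FPKM (-0.99, adjusted p = 0.0393), and its serine pools stood at 541 and 476 FPKM. Slc3a2, the heavy chain of amino acid transporters, rose from 15.9 and 14.8 to 32.1 and 33.1 FPKM (1.06, adjusted p = 0.0306). The 20 genes of that response had 1 call in each direction (median 0.42, but 0.73 without knockout pool 2), and Slc3a2 was also the only call among 13 amino acid transporter genes (median 0.50, but 0.28 without control pool 2). Slc3a1, the heavy chain of the cystine transporter, had a change of -1.43 (adjusted p = 0.0513).

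The list of serine, glycine and one-carbon genes (38 tested) held 1 call, Sptlc2. Sptlc2, a subunit of the enzyme that joins serine with palmitoyl-CoA to begin sphingolipids, rose from 4.39 and 4.16 to 14.04 and 17.8 FPKM (1.77, SE 0.17, adjusted p = 0.0210). Outside the lists Ptdss2, which exchanges serine into phospholipid, rose from 4.42 and 3.9 to 20.7 and 12.96 FPKM (1.86, adjusted p = 0.0370). Amt, of the glycine cleavage system, stood at 28.6 and 32.4 FPKM in the controls and at 13.6 and 15.3 FPKM in the knockouts (-1.05, adjusted p = 0.0567), and on serine at 23.8 and 32.3 FPKM. The list's median was -0.05, but 0.04 with TPM scaling. Amino acid catabolism and the urea cycle gave no call among 31 (median 0.07, but -0.00 with median-of-ratios scaling), with Cps1, the first urea cycle enzyme, at 1439.5 and 1083 and at 3283 and 2519 FPKM (1.20, adjusted p = 0.0877). Aminoacyl-tRNA synthetases gave none among 20 (median 0.18).

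Hmox1, heme oxygenase, rose from 9.26 and 7.35 to 21.7 and 20.97 FPKM (1.32, adjusted p = 0.0393), and with Hamp2 made the 2 calls among 26 genes of metals and heme (median -0.06, but 0.03 with TPM scaling). Glutathione and NRF2 target genes gave no call among 29 (median 0.11), with Gclm, the modifier of glutathione synthesis, at -0.94 (adjusted p = 0.0635). Gabarapl1, an autophagosome protein, fell from 207 and 216 to 117 and 126 FPKM (-0.80, adjusted p = 0.0393). It was the only call among 27 autophagy genes (median 0.08, but 0.01 with median-of-ratios scaling). Proteasome genes gave none among 37, with 5 above and 20 below both controls (median -0.18). Heat shock proteins (21 tested, median -0.06, but 0.02 with TPM scaling) gave none. The p53 and cell cycle genes (13 tested, median -0.13, but 0.05 without control pool 1) gave none either.

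Detoxification and bile genes included large changes that missed the threshold. Sult2a8, a hepatic sulfotransferase, fell from 282 and 246 to 88.1 and 80.8 FPKM (-1.64, SE 0.20, adjusted p = 0.0306), the only call among 19 conjugating enzymes (median -0.32). Cyp2b10, the classical target of the receptor CAR, stood at 1.22 and 2.6 FPKM in the controls and at 52.4 and 18.9 FPKM in the knockouts (3.79, adjusted p = 0.0552). Its knockout pools differed by more than 2-fold, and no gene was called among 33 of its families (median -0.26). Nr0b2, the bile acid induced repressor SHP, stood at 38.7 and 28.6 FPKM in the controls and at 1.79 and 6.26 FPKM in the knockouts (-3.10, adjusted p = 0.0523). The bile salt pump Abcb11 had a change of -1.60 (adjusted p = 0.107). Bile acid genes gave no call among 21, with 4 above and 9 below (median -0.19). Nuclear receptors and liver transcription factors gave none among 29 (median -0.04, but 0.04 with TPM scaling). Pericentral genes (16 tested, median -0.0036, but 0.08 with TPM scaling) and periportal genes (16 tested, median 0.29) gave none either.

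**Figure D5:**
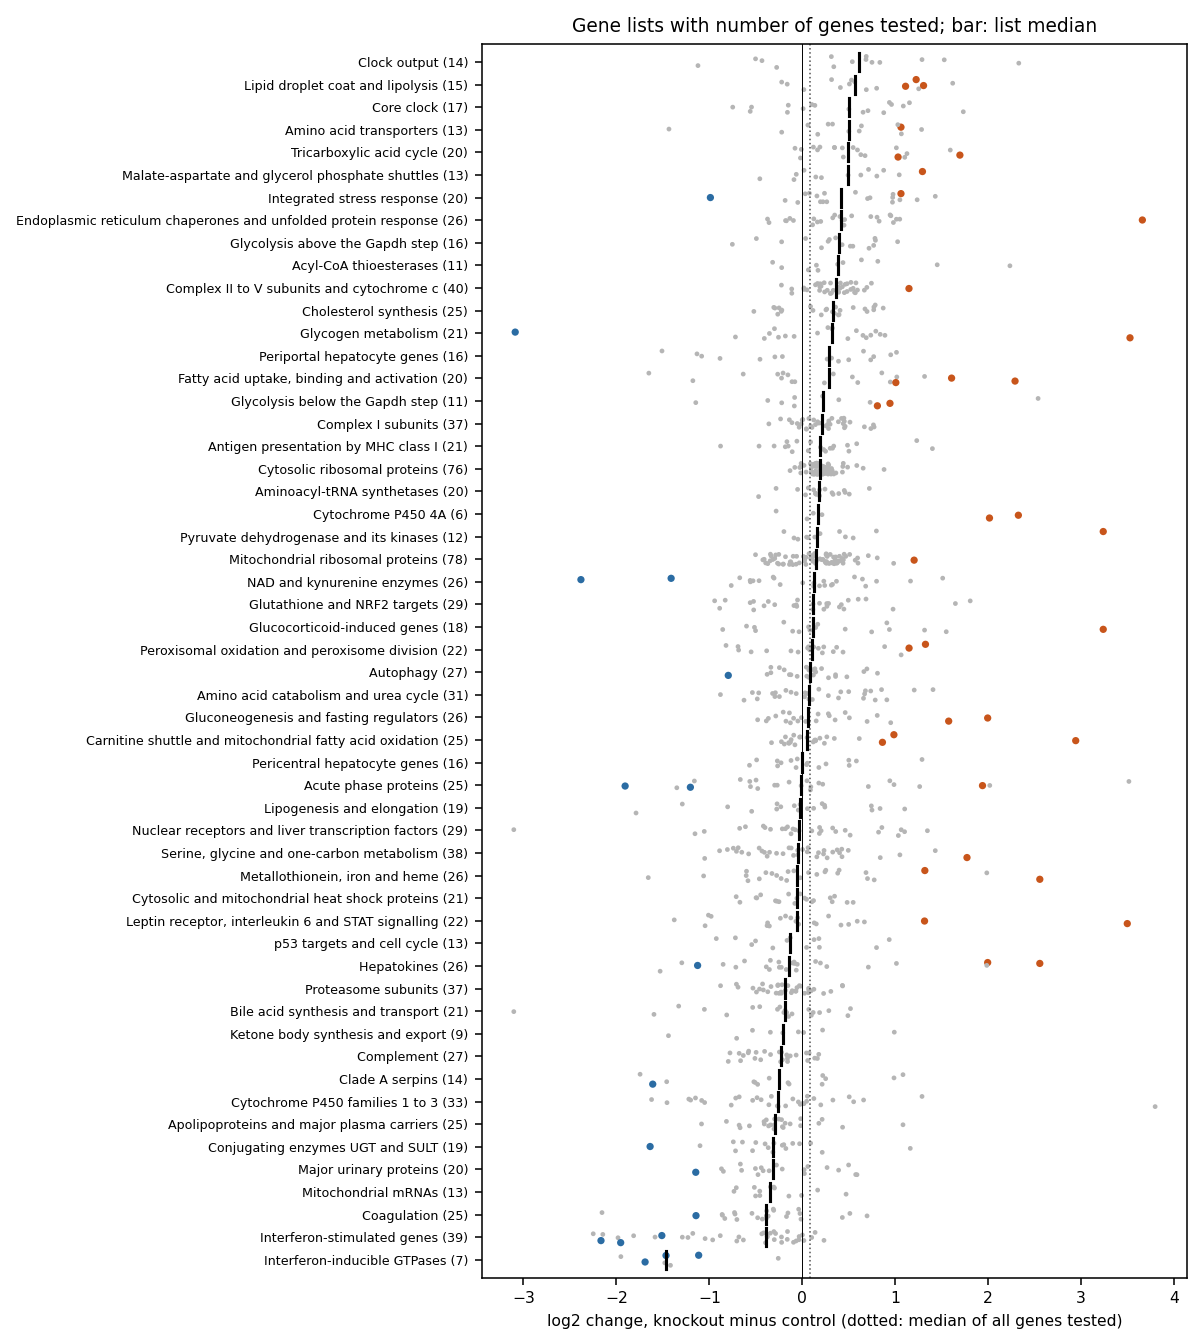
Log2 change of every tested member (points, horizontal axis) of the 54 gene lists, with the number of genes tested in brackets, the list median as a black bar and the median of all genes tested, 0.08, as a dotted line. Orange and blue points are called genes, and the interferon lists sit lowest while clock output and lipid droplet lists sit highest.

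Of the 135 called genes, 50 belong to at least 1 list and 85 to none. Among the latter, the rule on size named Etnppl, the phospho-lyase of ethanolamine phosphate, which rose from 87.7 and 51.5 to 645 and 399 FPKM (2.91, adjusted p = 0.0422). It also named Spata24, known from testis, which rose from 3.03 and 2.37 to 18.2 and 17.95 FPKM (2.55, adjusted p = 0.0158). Olig1, a transcription factor of oligodendrocytes, rose from 1.18 and 1.76 to 13.3 and 8.07 FPKM (2.48, adjusted p = 0.0306). Olig1 and Atf5 were the 2 calls among 674 transcription factor genes as the deposited table marks them. Enc1, an actin-binding protein of neurons, rose from 3.63 and 3.65 to 24 and 17.4 FPKM (2.34, adjusted p = 0.0210). Synpo, an actin-associated protein of kidney podocytes, rose from 2.44 and 2.39 to 12.9 and 8.76 FPKM (adjusted p = 0.0306). Several of these are best known from tissues other than liver. The marker lists of pancreas, adipose tissue and muscle had 1 gene tested each, and no list covers testis, nervous system or kidney. Whether other tissue contributed was not tested.

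Gal3st1, the sulfotransferase that makes sulfatide, rose from 0.61 and 1.27 to 5.58 and 7.01 FPKM (2.27, adjusted p = 0.0306). Adora1, an adenosine receptor, rose from 4.27 and 7.06 to 26.1 and 19.1 FPKM (adjusted p = 0.0474), and Car2, a carbonic anhydrase, from 2.44 and 1.93 to 9.73 and 9.26 FPKM (adjusted p = 0.0210). On serine Car2 stood at 15.7 and 15.6 FPKM, further from the controls than on water. AA986860, a gene of unnamed function, rose from 2.14 and 1.47 to 19.5 and 11.4 FPKM (adjusted p = 0.0478).

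On the lower side, Sdr9c7, a short-chain dehydrogenase, fell from 27.2 and 29.1 to 6.42 and 7.06 FPKM (-1.99, SE 0.14, adjusted p = 0.0110), and its serine pools stood at 13.3 and 12.4 FPKM. Taf13, a subunit of the general transcription factor TFIID, fell from 13.3 and 14.7 to 4.55 and 5.22 FPKM (-1.43, adjusted p = 0.0306). Mpdz, a scaffold of cell junctions, fell from 6.66 and 8.51 to 2.31 and 2.71 FPKM (-1.42, adjusted p = 0.0370). The replication-dependent histone genes H2bc4 (144 and 156 to 52.7 and 61.6 FPKM, adjusted p = 0.0210) and H3c15 (4.95 and 8.22 to 0.86 and 0.69 FPKM, adjusted p = 0.0472) fell, and both have near-identical relatives. Hectd2os, antisense to Hectd2 by its name, fell from 10.5 and 12.3 to 1.41 and 1.48 FPKM (adjusted p = 0.0368), and without knowledge of strand use its reads cannot be told from those of its partner.

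Further called genes outside the lists, chosen after their values were seen, fall into a few kinds. In lipid handling, Gpat3, which starts glycerolipid synthesis (1.57), the monoacylglycerol lipase Abhd6 (1.31) and the phosphatidylcholine carrier Pctp (1.00) rose. In mitochondria and redox balance, the carrier Ucp2 (0.87) and the ubiquinone reductase Aifm2 (0.98) rose. At the cell surface, Tnfrsf12a, the receptor of TWEAK, rose from 8.13 and 11.4 to 38.7 and 30.6 FPKM (1.78), and Tlr5, the flagellin receptor, from 2.24 and 2.98 to 7.08 and 8.28 FPKM (1.40). Membrane traffic was represented by Rab9 (0.73), Rab30 (0.99) and Picalm (0.84). On serine Rab30 stood at 19.4 and 16.2 FPKM, below its control values of 24.1 and 23.4 FPKM. Other risers were Ctps, the CTP synthase (1.53), C9orf72 (1.56), the paraspeckle protein Pspc1 (1.63) and the retinol dehydrogenase Rdh16 (1.04). Dpp9, a dipeptidyl peptidase, fell from 25.1 and 22.1 to 10.6 and 10.7 FPKM (-1.11). The adjusted p of these genes lay between 0.0210 and 0.0482.

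Among called genes, 4 were listed at 0 in both control pools, so no fold is given. Gm43778 (chr5:55810291-55810489, plus strand, GRCm39), a model of 199 bases, reached 73.96 and 54.5 FPKM in the knockout pools and 51.6 and 81.6 FPKM in the serine pools. It was the only call with the same adjusted p as Gapdh (adjusted p = 0.000352), a tie that the adjustment can give to unequal p-values. Kiss1, the kisspeptin precursor, stood at 2.32 and 4.67 FPKM in the knockouts and was listed at 0 on serine. Gm49051 and Gm47101 stood at 8.13 and 4.81 and at 3.67 and 8.84 FPKM and were listed at 0 on serine too. Kiss1, Gm49051 and Gm47101 thus passed the filter on mean FPKM only through the knockout pools on water, where they are high. Their calls held in 4, 5 and 5 of 6 other settings of scaling, pseudocount, filter or libraries. Short models such as Gm43778 gain high FPKM from few fragments.

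None of the markers tested in 10 lists of cell types and tissues was called, with only 1 gene tested in each of the pancreas, adipose and muscle lists. Hepatocyte markers summed to 73511 and 68978 FPKM in the controls and to 62300 and 71934 FPKM in the knockouts. Endothelial markers summed to 151 and 144 FPKM in the controls and to 139.7 and 149 FPKM in the knockouts, and stellate markers to 86.5 and 64.9 FPKM and to 78.9 and 91.9 FPKM. Cholangiocyte markers summed to 25.4 and 32.4 FPKM in the controls and to 15.7 and 21.02 FPKM in the knockouts, lower in both, with Sox9 at 3.0 and 2.32 and at 0.55 and 0.66 FPKM (adjusted p = 0.0651). Pancreas markers, with Ins2 and Amy2a1 at 0, summed to 27.2 and 19.1 FPKM in the controls and to 9.53 and 10.8 FPKM in the knockouts. Nearly all of that was Cela1, which stood at 23.4 and 17.6 and at 6.84 and 10.4 FPKM (adjusted p = 0.0676). Blood markers were most uneven within a group, at 1166 and 1094 FPKM in the controls and at 736 and 1605 FPKM in the knockouts, led by the globin genes. Adipose markers, with Adipoq, Lep and Retn at 0, summed to 13.9 and 7.68 FPKM in the controls and to 13.5 and 19.6 FPKM in the knockouts, nearly all of it Fabp4. Muscle markers, with Ckm and 4 others at 0, summed to at most 2.33 FPKM in any of the 4 libraries.

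Pools of the same group also differed from each other. The control pools differed by more than 2-fold for 358 tested genes (3.22%) and the knockout pools for 398 (3.57%). Some metabolic genes with large mean changes differed between the knockout pools, Acmsd and Got1 by more than 2-fold and Nnmt by less. Acmsd, which diverts tryptophan carbon from NAD synthesis, stood at 10.3 and 11.9 FPKM in the controls and at 50.3 and 20.9 FPKM in the knockouts (1.51, adjusted p = 0.207). Got1, the cytosolic aspartate aminotransferase of the malate shuttle, stood at 400.4 and 366 and at 1158 and 538 FPKM (1.04, adjusted p = 0.253). Nnmt, which methylates nicotinamide, stood at 371 and 360.1 and at 943 and 711 FPKM (1.16, adjusted p = 0.139). In each of them knockout pool 1 was the higher, and both knockout pools lay above both controls.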

How the data were processed

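The authors deposited FPKM per gene for 6 libraries, 2 in each of 3 groups. Per the submitters' processing notes, bcl2fastq, HISAT2 2.0.5 and the genome GRCm39 were used. How FPKM was computed, from which annotation release and with which strand setting, is not given in the sources used here. Of 55414 annotated genes, 11134 were tested, those whose mean over all 6 libraries was at least 1 FPKM, and 295 unannotated transcripts were left out. Log2(FPKM + 0.5) was fitted with 3 group means in limma 3.58.1 (R 4.3.3, eBayes with trend, 3 residual and 3.46 prior degrees of freedom). Two-sided p-values were adjusted by Benjamini-Hochberg over all genes tested, with a threshold of 0.05, and SE is the moderated standard error. The script was tested on simulated data. An exact permutation test of 2 against 2 libraries cannot go below 0.333, so none was used.

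Depth was implied from the steps between low FPKM values, of which 84.1% to 89.4% were whole multiples, where chance gives 17.3% to 19.0%. No count model was fitted.

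Named genes were Gapdh, the 20 higher and 20 lower called genes with the largest change, a mean of 5 FPKM or more in a compared group and no Gm number, Rik clone or pseudogene name, and in each list every called member and up to 4 with the smallest p. Other genes named were chosen after their values were seen. Some genes that the rule names are not reported here. The members, the 54 gene lists and the 10 marker lists were chosen with earlier results of these data known, from textbook knowledge. Lists were described by counts and medians and not tested. Promoter windows are those of RefSeq on GRCm38.p6, matched by symbol for 8520 tested genes, and coordinates of genes are those of the deposited table on GRCm39.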

Additional observations from a re-analysis of the deposited data

How the results depend on the processing

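The fall of Gapdh passed in all alternatives run, those without a library included, with log2 changes from -6.14 to -5.67. Counts of calls depended on the setting. Against 90 higher and 45 lower genes there were 171 and 57 with TPM scaling, 61 and 49 with median-of-ratios scaling, 112 and 98 with only the 4 libraries compared, 133 and 62 with a filter at a mean of 5 FPKM, 10 and 6 without the variance trend, and 1 and 1 with no filter on low values. With the filter at a mean of 5 FPKM the marker lists of lymphocytes and muscle had no gene left. Pseudocounts of 0.1 and 1 gave 100 and 94 higher genes. Leaving out each library gave 3 to 117 higher and 3 to 99 lower genes. Of the 135 called genes, 59 lost the call in at least 1 of 6 other settings of scaling, pseudocount, filter or libraries. No result changed direction among those with a call. The medians of 15 of the 64 lists changed sign with scaling and those of 18 with a compared library left out. The replicate numbers were not used to pair the samples. Deviations of control and knockout pools with the same number correlated at 0.028, and those of knockout pools on water and on serine at -0.20. These values cannot show whether the numbers mark a shared batch. With the number as a replicate block 3 genes were called higher and 1 lower. The cause of these differences was not tested. With 2 pools a group, differences comparable to the spread between pools, 0.21 on the log2 scale for the median gene, were not detectable here.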
